A study of Mus musculus with 6 samples.

Results

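The mouse major histocompatibility complex (MHC) class I genes of the H2-D, H2-Q and H2-T groups lie in clusters on chromosome 17. All ChIP-seq peaks that overlapped either of a pair of mm9 windows over these clusters were taken from the deposited peak lists, from 35.38 to 35.65 Mb for the H2-D and H2-Q genes (the H2-D/Q window, 270 kb) and from 36.1 to 36.4 Mb for the H2-T genes (the H2-T window, 300 kb). Of 43384 peaks in all, 101 were found there, with 45 of 9470 H3K27me3 peaks in proliferating cultures, 25 of 15187 H3K27me3 peaks after 30 h of differentiation and 31 of 18727 H3K4me3 peaks in proliferating cultures. The windows were chosen by the width of their H3K27me3 peaks in these same lists, so the amount and width of H3K27me3 within them are a description and were not tested. The H3K4me3 list played no part in that choice.

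The cells were monolayer cultures of neural stem cells (NSCs) derived from the subventricular zone (SVZ) of C57BL/6 mice, at passages 5 to 7, with no transgene or deletion named in the labels. ChIP-seq recovers and sequences DNA bound to a modified histone, and a peak is a stretch with more reads than the peak caller, MACS, takes for background. There was 1 library per list, so no difference between lists has a replicate check. The labels call the H3K4me3 culture ventral and do not say this of the H3K27me3 cultures, so the marks may come from different cultures. The lists hold no read counts, so depth is unknown, and the score of a peak, the authors' own value from MACS, was used only to rank peaks within a list. The lowest scores lie near 50, and many strong peaks share the score 3100, reached by 46.1% of all H3K4me3 peaks.

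MHC class I heavy chains pair with the light chain encoded by B2m and carry peptides from inside the cell to its surface, where cytotoxic T cells and natural killer cells read them. H2-D1 encodes a classical molecule of this kind, whereas the H2-Q and H2-T genes encode non-classical ones with narrower expression, among them H2-Q7 (a Qa-2 antigen), H2-T23 (Qa-1) and H2-T3 (the thymus leukemia antigen). Class I genes are held low in much of the brain and are raised by interferons and NF-kB. H3K27me3 is placed by EZH2, within Polycomb repressive complex PRC2, and accompanies silent genes, while H3K4me3 marks the start sites of active or poised genes.

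The family is built from repeated copies, which bears on every value given here. In the RefSeq annotation of GRCm38.p6, a later build than that of the peaks, the first block ran between Ddx39b and Pou5f1 in the order H2-D1, H2-Q1, H2-Q2, H2-Q3, H2-Q4, H2-Q5, H2-Q6, H2-Q7 and H2-Q10, and held 9 H2 genes, of which 2 were pseudogenes. The second ran between Gnl1 and Trim39 in the order H2-T24, H2-T23, H2-T22, H2-Bl, H2-T-ps, H2-T10 and H2-T3, and held 7 H2 genes with 2 pseudogenes. The blocks held 22 and 27 genes in all, so most of their genes were not H2 genes. No mm9 gene positions were at hand, and each peak is therefore named by its coordinates rather than by a gene. A RefSeq promoter, from 250 bases before the start site to 50 after, was found for 6 of the 8 listed genes (H2-D1, H2-Q2, H2-Q4, H2-Q7, H2-T23 and H2-T3), and not for H2-Q1 and H2-T24. The following stretches, from 250 to 31 bases before the start, are shown to let the likeness of the copies be seen. Capitals mark matches, on either strand, to a palindromic NF-kB site, to an interferon response motif, to TGACG (the CRE core) and to CCAAT (the CCAAT box).
H2-D1, GRCm38.p6, chr17:35262844-35263063, plus strand: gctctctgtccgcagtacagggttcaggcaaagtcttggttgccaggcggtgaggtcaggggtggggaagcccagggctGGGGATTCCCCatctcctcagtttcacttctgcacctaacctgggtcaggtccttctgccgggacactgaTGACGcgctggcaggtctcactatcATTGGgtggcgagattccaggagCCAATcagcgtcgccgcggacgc
H2-Q4, GRCm38.p6, chr17:35379367-35379586, plus strand: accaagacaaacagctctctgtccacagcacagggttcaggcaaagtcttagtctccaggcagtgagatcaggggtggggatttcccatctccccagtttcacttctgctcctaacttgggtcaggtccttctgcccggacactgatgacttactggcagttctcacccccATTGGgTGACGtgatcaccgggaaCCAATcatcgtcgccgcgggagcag
H2-Q7, GRCm38.p6, chr17:35438905-35439124, plus strand: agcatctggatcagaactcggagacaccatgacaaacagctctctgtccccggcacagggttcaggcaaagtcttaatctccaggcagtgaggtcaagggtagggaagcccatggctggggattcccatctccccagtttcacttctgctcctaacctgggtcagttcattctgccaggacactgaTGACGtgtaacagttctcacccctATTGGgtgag
H2-T23, GRCm38.p6, chr17:36032732-36032951, minus strand: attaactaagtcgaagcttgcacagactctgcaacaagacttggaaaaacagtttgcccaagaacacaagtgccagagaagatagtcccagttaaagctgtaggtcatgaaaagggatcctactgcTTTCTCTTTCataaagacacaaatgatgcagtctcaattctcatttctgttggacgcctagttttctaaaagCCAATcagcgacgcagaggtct

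The H2-D1, H2-Q4 and H2-Q7 promoters were the most alike. Those of H2-T23 and H2-T3 were only a little more alike than either was to unrelated genes. In global alignments of the 300 bases, H2-D1 and H2-Q4 were identical at 74.7% of aligned positions, H2-Q4 and H2-Q7 at 66.8%, and H2-D1 and H2-Q7 at 64.3%. H2-Q2 was identical to H2-Q4 at 61.2% and to H2-D1 at 59.8%. H2-T23 and H2-T3 were identical at 49.9%. B2m, Tap1, Tapbp, Psmb8 and Psmb9 serve the same pathway but are no copies. Over 30 pairs of a listed gene with any of these, the median was 46.3%. The pairs of H2-T23 or H2-T3 with them ran from 43.3 to 46.8%. Short reads from identical stretches cannot be told apart. Within the 300-base promoters of the 6 listed genes, the longest such stretch was 34 bases long, in H2-Q4 and H2-Q7. A longer one, of 47 bases around the NF-kB site, joined H2-D1 to H2-K1, the classical gene outside the list. The rest of the genes and the stretches between them were not compared, so longer identical stretches may lie there.
Shared by H2-Q4 and H2-Q7: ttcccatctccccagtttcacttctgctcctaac
Shared by H2-D1 and H2-K1: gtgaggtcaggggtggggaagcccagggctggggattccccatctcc

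Counted as exact letters, the motifs differed between the promoters as well. The CCAAT box was present in 5 of the 6 promoters (all but H2-T3), against 37.4% of all 32851 RefSeq promoters of the same length. The CRE core was present in 3 of 6 (H2-D1, H2-Q4 and H2-Q7), against 20.8%. The NF-kB site was found in H2-D1 alone among the listed genes, and in 10 of all promoters (0.0304%). The interferon response motif, in the single form searched, was found in H2-T23 alone, against 3.44% of all. Other forms of the NF-kB and interferon elements were not searched, so a promoter without a match may still hold one. Among the other genes of the pathway with a promoter, 5 of 6 held the CCAAT box and 4 of 6 the CRE core. The number of CpG dinucleotides ran from 19 in H2-D1, 12 in H2-Q7 and 9 in H2-Q4 to 5 in H2-T23, 4 in H2-Q2 and 2 in H2-T3, with a median of 7 over all promoters. These are matches of letters, and no binding was measured.

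H3K27me3 filled much of both windows in proliferating cultures and more of them at 30 h, and thinned sharply outside. In the H2-D/Q window, peaks covered 43.9% of the bases in proliferating cultures and 66.5% at 30 h. In the H2-T window they covered 30.4% and 51.7%. The 450 kb between the windows was covered to 0.699% in proliferating cultures and to 3.43% at 30 h, the 300 kb before the H2-D/Q window to 5.18% and 5.75%, and the 300 kb after the H2-T window to 2.88% and 3.46%. Tiling the numbered chromosomes with bins as long as each window, 6 of 9146 bins held as much proliferating H3K27me3 as the H2-D/Q window or more, and 11 of 8230 as much as the H2-T window. At 30 h these numbers were 10 of 9146 and 17 of 8230, and the median bin held none in either list. The windows were picked for wide H3K27me3 and took in whole runs of peaks, whereas bins can cut runs. A high rank was therefore built into the choice, and no excess was tested. The counts moved with the settings, to 5 of 9135 for the H2-D/Q window at 30 h with shifted bins, to 11 of 8230 for the H2-T window at 30 h with equal covered length of both lists, and to 17 of 8225 for the H2-T window in proliferating cultures with the stronger 50% of the list.

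**Figure D1:**
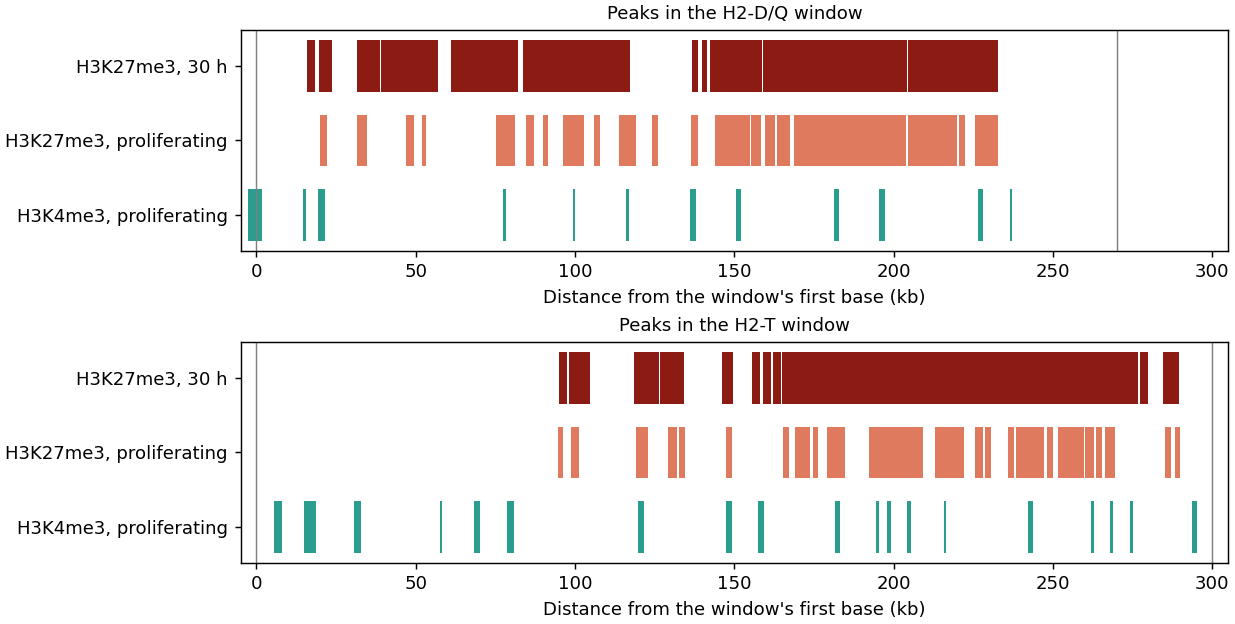
Peaks of the 3 lists (rows) along the H2-D/Q window (upper) and the H2-T window (lower), drawn to scale against distance from the first base of the window (x axis, kb; vertical grey lines, window edges). Proliferating H3K27me3 appears as many short peaks where 30 h H3K27me3 forms long runs, and the first 94.7 kb of the H2-T window hold H3K4me3 peaks and no H3K27me3 peak.

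**Figure D2:**
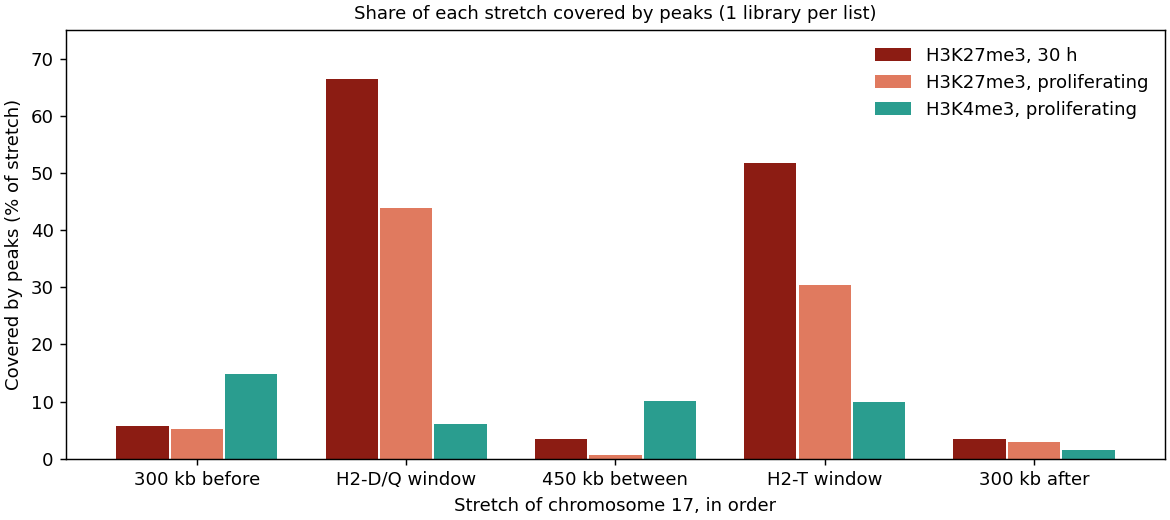
Share of bases covered by peaks (y axis, percent) in the windows and in the neighbouring stretches of chromosome 17 (x axis, in order), for each list (colours). Bars are 1 library each with no error, and H3K27me3 reaches 66.5% and 51.7% in the windows at 30 h, but no more than 5.75% in any neighbouring stretch.

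The edges of the windows fell in stretches free of H3K27me3. In proliferating cultures, the last peak before the H2-D/Q window ended 37.7 kb short of it (1.89 kb wide, score 79.42), the first peak inside scored 203.63 and the last inside 883.80, and the next peak began 130.1 kb after the window (score 50.28). Around the H2-T window, the last peak before it lay 12.7 kb away (score 88.27), the first and last inside scored 52.54 and 50.52, and the next began 69.2 kb after it (score 88.50). Both windows thus took in whole runs of peaks. An H3K4me3 peak at chr17:35377396-35381598 straddled the first base of the H2-D/Q window and was counted.

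In proliferating cultures the H2-D/Q window held 22 H3K27me3 peaks from 1450 to 35323 bp wide and the H2-T window 23 peaks from 1459 to 16792 bp. The widest was chr17:35548569-35583891, 35.3 kb wide with a score of 3100, followed by chr17:36292343-36309134 (16.8 kb, score 3100) and chr17:35584451-35599907 (15.5 kb, score 1301.40). Next came chr17:36312959-36322027 (9.07 kb, score 1296.71) and chr17:36338210-36347097 (8.89 kb, score 727.33). The median score was 174.7 in the H2-D/Q window and 106.9 in the H2-T window, against 88.2 over the whole list. Of the 45 peaks, 3 were wider than 10 kb (6.67%), against 3.23% of the whole list. The median gap between neighbouring peaks was 2845 bp in the H2-D/Q window and 2188 bp in the H2-T window.

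At 30 h the same stretches were held by fewer and wider peaks, 12 in the H2-D/Q window and 13 in the H2-T window, of which 8 were wider than 10 kb (32.0%, against 7.76% of the whole list). In the H2-D/Q window these were chr17:35539159-35584140 (45.0 kb), chr17:35463683-35497332 (33.6 kb), chr17:35584352-35612872 (28.5 kb) and chr17:35441176-35461936 (20.8 kb), each with a score of 3100, and chr17:35522465-35538796 (16.3 kb, score 2658.35) and chr17:35422233-35436908 (14.7 kb, score 1395.74). In the H2-T window they were chr17:36264782-36350614 (85.8 kb) and chr17:36350623-36372180 (21.6 kb), both with a score of 3100. These last peaks were only 8 bp apart, so where one peak ends and the next begins can rest on very little. With peaks less than 3 kb apart joined, 7 of the 13 peaks of the H2-T window at 30 h formed a domain of 124.3 kb, the 5th widest of 10640. In the H2-D/Q window, 5 of the 12 peaks formed one of 96.4 kb, the 13th widest. The other peaks of both windows stayed in smaller domains. The same joining in proliferating cultures gave a domain of 78.7 kb in the H2-D/Q window, the 7th widest of 7853, but none wider than 33.6 kb in the H2-T window.

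Nearly all H3K27me3 peaks of proliferating cultures in the windows met one at 30 h, 43 of 45 (95.6%, 95% Wilson confidence interval 85.2 to 98.8%), against 61.3% of the whole list. All 23 in the H2-T window did so, and 20 of 22 in the H2-D/Q window. Both peaks that did not were neighbours, at chr17:35497338-35499226 (1.89 kb, score 79.48) and chr17:35504037-35505942 (1.91 kb, score 106.23), within the longest stretch of the H2-D/Q run without a 30 h peak (19.2 kb). The last peaks before that stretch ended at base 35497332 in both lists. Only 9 of the 9470 proliferating peak ends fell on a 30 h peak end to the base (0.0950%), and this was the single one in the windows. Of the 30 h peaks, 17 of 25 met a proliferating peak (68.0%, 48.4 to 82.8%), against 30.7% of the whole list, but 10 of 25 (40.0%) when at least 50% of the peak had to be covered. The other 8 were 1.64 to 4.30 kb wide, so each of the 8 peaks wider than 10 kb had proliferating H3K27me3 under it. Intervals cover counting error only, and peaks of one run are not independent of each other. Because the windows were picked for wide H3K27me3, the choice itself raises such sharing. The same holds for shared length and for 30 h peaks over several proliferating peaks, so no excess was tested.

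By length, 114.8 of the 118.6 kb marked in proliferating cultures in the H2-D/Q window were marked at 30 h as well (96.8%), and 90.5 of 91.2 kb in the H2-T window (99.3%), against 74.3% over the whole lists. A further 64.8 kb and 64.7 kb were marked at 30 h only. Covered length at 30 h was 1.51 times that of proliferating cultures in the H2-D/Q window and 1.70 times in the H2-T window, both below the 2.52 of the whole lists. Cover at the start limits this ratio. With 43.9% of its bases marked in proliferating cultures, the H2-D/Q window could not have reached 2.52 even if wholly marked at 30 h. The H2-T window, with 30.4% marked, could have reached it. Among bins of the same length with over 10% of their bases marked in proliferating cultures, the median ratio was 1.85 for 185 bins and 1.81 for 164 bins, and 128 and 90 of them were at or above the H2-D/Q and H2-T windows. The ratios of the windows were thus no higher than those of most such bins. Most of these bins started with less cover, and whether that bears on the ratios was not tested. With the 30 h list cut to its strongest peaks until it covered no more of the genome than the proliferating list, the ratios were 1.34 and 1.35. Windows picked for wide H3K27me3 keep their high-scoring wide peaks in such a cut, so these ratios are no check on unequal depth.

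The wide peaks at 30 h lay over runs of separate proliferating peaks. The 85.8 kb peak of the H2-T window met 11 proliferating peaks, which covered 66.2% of it, and no other peak of the 30 h list met as many. The next, outside the windows, met 9 and was 58.8 kb wide. In the H2-D/Q window, the 33.6 kb peak met 5 proliferating peaks, which covered 48.3% of it, whereas the 45.0 kb peak met 3 that covered 94.6%. The 14.7 kb and 20.8 kb peaks near the start of the run were covered to only 27% and 28.5%. Some stretches of 30 h H3K27me3 lay almost wholly under proliferating peaks, and others lay mostly where only the 30 h list had a peak. With unknown depth, a stretch without a proliferating peak may still have carried the mark. Of all 25 peaks at 30 h, 9 met at least 2 proliferating peaks (36.0%, against 5.83% of the whole list). Of the 8 wide peaks, 7 met at least 2 proliferating peaks, against 49.5% of the 1179 peaks wider than 10 kb in the list. Width moved with this, with a median of 25 kb against 14.8 kb, and above 20 kb the counts were 5 of 6 in the windows against 74.7% of 308 in the list.

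**Figure D3:**
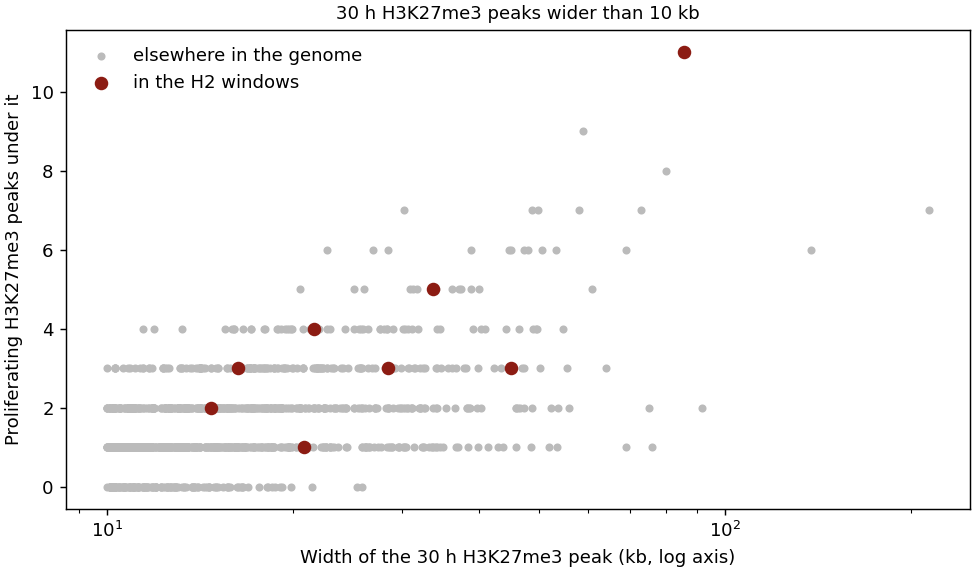
Number of proliferating H3K27me3 peaks under each 30 h H3K27me3 peak wider than 10 kb (y axis) against the width of that peak (x axis, kb, log scale), for the 8 peaks in the windows (red) and the others of the 1179 (grey). The peak at 85.8 kb and 11 peaks stands above all others, and the other 7 in the windows met 1 to 5.

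H3K4me3 peaks stood inside the H3K27me3 runs more often than in the genome at large. Of the 31 in the windows, 19 overlapped proliferating H3K27me3 (61.3%, 95% Wilson confidence interval 43.8 to 76.3%), against 11.0% of the whole list. At 30 h, 21 overlapped H3K27me3 (67.7%, 50.1 to 81.4%), against 14.3%. The same 19 met the mark in both lists (10.2% of the whole list did), 2 met it at 30 h only (4.12%), none met it in proliferating cultures only (0 of 31, which allows a share of up to 9.68%, against 0.764%), and 10 met it in neither (84.9%). The windows were picked for wide H3K27me3, which by itself raises such overlap, so the excess was not tested. Cutting the lists lowered the shares. With the stronger 50% of each list, 2 of 8 H3K4me3 peaks met proliferating H3K27me3 (25%, against 2.46% of all) and 1 of 8 met it at 30 h (12.5%, against 3.82%). With the H3K4me3 list alone cut, 2 of 8 met the mark in each list (25%), against 3.14% of the stronger H3K4me3 peaks for proliferating cultures and 5.24% for 30 h. Seen from the other side, 16 of 45 proliferating H3K27me3 peaks (35.6%, against 19.5%) and 14 of 25 at 30 h (56.0%, against 16.0%) met an H3K4me3 peak. Among 30 h peaks wider than 10 kb, 7 of 8 did (87.5%, against 42.5%), and among those wider than 20 kb 6 of 6, against 57.5%.

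Over both windows, H3K4me3 peaks that met H3K27me3 were narrower and had lower scores, a contrast that came from the H2-T window. The 21 that met H3K27me3 in either list had a median width of 1389 bp and a median score of 301.7, and the 10 that met none had 1997.5 bp and 2935.5. In the H2-T window the medians were 1251.5 bp and 279.3 for 12 peaks with the mark, and 2188 bp and 3100 for 7 without. In the H2-D/Q window the 9 peaks with the mark were the wider, with medians of 1419 bp and 461.1 against 1029 bp and 544.3 for only 3 without. None of the 21 reached a score of 3100 (0 of 21, which allows up to about 14.3%), against 15.2% of the 2822 peaks over H3K27me3 in the whole list. That limit is approximate, takes the peaks as independent and lies too close to 15.2% to set the windows apart. Of the 10 that met no H3K27me3, 5 reached this score, against 51.5% of those free of it in the whole list. Most of the 21 lay wholly inside the mark, 18 of 21, against 60.4% of the 2822. Over the whole list the medians were 1491 bp and 702.5 with H3K27me3 and 2067 bp and 3100 without, an order that the H2-T window shared and the width in the H2-D/Q window did not.

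The H2-T window was split into a stretch with H3K4me3 alone and a stretch with both marks. Its first 94.7 kb held no H3K27me3 peak of either list but 6 H3K4me3 peaks, including chr17:36114966-36118760 (3.79 kb), chr17:36105520-36107883 (2.36 kb) and chr17:36130745-36132932 (2.19 kb), each with a score of 3100, and chr17:36178542-36180762 (2.22 kb, score 2181.42). They lay 13.9 to 43.4 kb from the nearest proliferating H3K27me3 peak. Peaks were not assigned to genes, so these may lie at genes other than the H2 genes. The 13 H3K4me3 peaks beyond had a median score of 283.0 against 2935.5 for these 6. Among the 13, the highest was chr17:36393788-36395308, with a score of 3186.27, just past the end of the H3K27me3 run and 3.96 kb from it. The 85.8 kb peak of 30 h H3K27me3 held 6 H3K4me3 peaks, a number that only 4 peaks of the whole 30 h list, this one included, reached. Their scores ran from 144.87 to 1557.00, and all 6 lay over proliferating H3K27me3 too. The pair that met H3K27me3 at 30 h only lay near the ends of the 124.3 kb domain. These were chr17:36257447-36259180 (score 582.72), 6.10 kb from the nearest proliferating peak, and chr17:36374216-36375178 (score 275.62), 4.83 kb from the nearest.

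In the H2-D/Q window, 3 H3K4me3 peaks scored far above the other 9. The highest and widest, chr17:35377396-35381598 (4.20 kb, score 3100), lay apart from the mark, 14.3 kb before the first 30 h H3K27me3 peak. Next in score were chr17:35516067-35517862 (2842.90), at the start of the 96.4 kb domain and 76.8% under proliferating H3K27me3, and chr17:35399398-35401408 (2841.55), 74.2% under it. The other 7 that met H3K27me3 scored 60.06 to 694.61 and lay wholly inside it. Of the 3 free of the mark in this window, the other two scored 544.33 and 94.78 and were at most 4.33 kb away from proliferating H3K27me3. In all, H3K4me3 covered 6.03% of the H2-D/Q window and 10% of the H2-T window, a level that 4.43% and 1.04% of bins reached. With the stronger 50% of the list it covered 2.0% and 3.89%, which 20.3% and 6.48% of bins reached. With the full list, H3K4me3 covered 14.8% of the 300 kb before the H2-D/Q window and 10.1% of the 450 kb between the windows. The 300 kb after the H2-T window was covered to 1.54%. Such cover was thus not particular to the windows. H3K4me3 was measured in proliferating cultures only, so its course to 30 h is unknown.

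**Figure D4:**
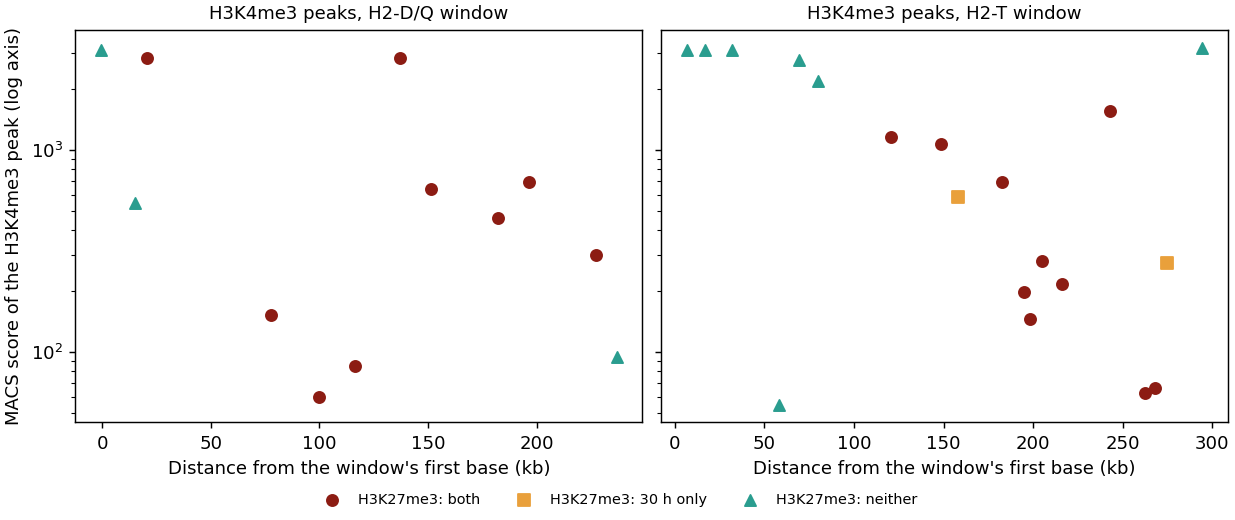
MACS score of each H3K4me3 peak (y axis, log scale) against its distance from the first base of the window (x axis, kb), for the H2-D/Q window (left) and the H2-T window (right), by whether H3K27me3 met it in both lists, at 30 h only or in neither. The 5 peaks at 3100 or above are all free of H3K27me3, and the peaks over H3K27me3 run from 60.06 to 2842.90.

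A stretch under peaks of both marks may carry them in different cells or on different copies of a gene. The sources used here do not say how reads that fit several copies were placed, so a peak over one gene can hold reads from another. MACS was run for H3K27me3 without local lambda, its correction for nearby background, and the input libraries were not analysed here.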

How the data were processed

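ChIP-seq peak lists were analysed for SVZ NSC cultures, with 1 library each for H3K27me3 in proliferating cultures, H3K27me3 at 30 h and H3K4me3 in proliferating cultures. Another 3 samples are inputs and were left out. Bowtie2 and mm9 appear in the submitters' processing notes, and the study's methods name MACS, run for H3K27me3 with neither its model nor local lambda. The sources used here do not give the MACS version, its threshold or how inputs entered the calls. Scores were deposited by the authors as MACS wrote them, and depth is unknown. Starts, counted from 0 in the lists, are given counted from 1.

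The windows, genes and settings were chosen with earlier results of these data known. Overlap meant at least 1 bp. Shares have 95% Wilson intervals, with no test, since each condition had 1 library. The upper limit given for a share of 0 is instead 3 counts over the total, an approximation. Bins were tiled from the first base of each numbered chromosome to its last peak; the minimum of 10% for ratios and the second width limit of 20 kb were set after the values were seen. Named peaks were the 5 widest per list, those wider than 10 kb and the highest-scoring per window and list; the others, such as the 2 unshared peaks, were named after their values were seen. Promoters came from RefSeq (GRCm38.p6). Python 3.11.15, numpy 2.4.6, pandas 2.3.3, scipy 1.17.1, Biopython 1.88 and matplotlib 3.10.9 were used. Overlap counts equalled those of bedtools 2.31.1, and the code was tested on simulated data, where it equalled counting every base in 20 of 20 pairs.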

Additional observations from a re-analysis of the deposited data

How the results depend on the processing

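Alternatives were the stronger 50% of each list, a 30 h list cut to equal numbers or equal covered length, joining of peaks less than 3 kb apart, windows widened by 50 kb, peaks wholly inside a window, 50% cover, and other bins. H3K27me3 cover of the windows and its ratio between lists stayed within 1.5 times the reported value under the first 6 of these, and the ratio stayed above 1; they were not computed for 50% cover and do not depend on bins. With the stronger 50%, H3K4me3 covered 2.0% (H2-D/Q) and 3.89% (H2-T) of the windows, its overlap with H3K27me3 was 25% (proliferating) and 12.5% (30 h), 87.5% of 30 h peaks met proliferating ones, and the share of bins at or above the window was 20.3% and 6.48% for H3K4me3 and 0.207% for proliferating H3K27me3 in the H2-T window. Fewer peaks remain in that setting by construction. With the H3K4me3 list alone cut, a setting added after the data were seen, the overlap was 25% with either H3K27me3 list. At equal covered length, 77.8% of proliferating peaks met a 30 h peak, 100% of 30 h peaks met a proliferating one, and 0.134% of bins reached the H2-T window at 30 h. After joining, 100% of 30 h peaks were shared, and with 50% cover 40.0%. With bins shifted along the chromosome, 0.0547% reached the H2-D/Q window at 30 h. Above 20 kb, all 6 wide 30 h window peaks met H3K4me3 (100%, against 87.5% above 10 kb). Beyond the smaller or joined lists, the cause was not tested. No paired analysis was possible because each condition had 1 library. Unknown depth limits every comparison between lists.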
